A study of Mus musculus with 12 samples.

Results

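The 7 genes described here encode enzymes of gluconeogenesis and of the reactions that feed it: Pck1 and Pck2, Pcx, Fbp1 and Fbp2, G6pc3 and Me2. They are a named set of enzymes around Pck1. The set was chosen by the log2 fold change of Pck1 with Nfib cDNA, the largest of any gene with a mean count of at least 10. The authors' deposited table held 28112 features, of which 23226 carried 1 gene name and 15008 of these had a mean normalized count of at least 10. All 7 enzyme genes were among the 15008.

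The study sequenced RNA from 3 tumor-derived lines of mouse small cell lung cancer, a neuroendocrine tumor, in 12 samples. All 3 lines are labelled Trp53-/-;Rb1-/- and were cultured as floating spheres. 16T and KP1, both labelled Nfib high, carried an shRNA against Nfib (shNfib, sh2 in the titles) or a control shRNA (shControl, shLuc in the titles). KP22, labelled Nfib low, carried Nfib cDNA or an empty vector. Each of the 6 groups had 2 samples, so each comparison rests on 1 line, and each knockdown on 1 named shRNA. The samples are not said to be separate cultures, and p-values therefore measure only the spread between these samples. Values are log2 fold changes ± SE of the authors' fit, shNfib over shControl or Nfib cDNA over empty vector. The words rose and fell are kept for genes whose adjusted p in the authors' Wald test was below 0.05. Values and total counts of single samples were not used here, so the level of a gene is known only as 1 mean normalized count over the libraries, its order across conditions cannot be given, and neither can the number of samples that show a direction.

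Gluconeogenesis makes glucose from lactate, alanine, glycerol and other carbon sources. Pyruvate carboxylase forms oxaloacetate in mitochondria, and phosphoenolpyruvate carboxykinase (PEPCK) turns oxaloacetate into phosphoenolpyruvate. Fructose bisphosphatase and glucose 6-phosphatase then bypass the one-way steps of glycolysis. The whole route runs in liver and kidney, where the cytosolic PEPCK gene Pck1 is switched on by fasting hormones through cAMP and glucocorticoids and switched off by insulin. Other tissues and many tumors use its first steps to supply oxaloacetate, serine and glycerol backbones, often with the mitochondrial isozyme PEPCK-M, encoded by Pck2.

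The product of Nfib is an NFI (nuclear factor I) protein, a class of transcription factors that bind the palindrome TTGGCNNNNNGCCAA or parts of it. In rat, the promoter of the Pck1 gene is known to hold an NFI site beside a cAMP response element. The 250 bases before the RefSeq start (GRCm38.p6, plus strand) are shown for both PEPCK genes, because their values with Nfib cDNA differ by a wide margin. The Pck1 window is chr2:173152823-173153072 and the Pck2 window chr14:55540016-55540265. Capitals mark matches to the motifs searched on both strands. These were the palindrome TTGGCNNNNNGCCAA, its short arm TTGGC, the relaxed form TGGCNNNNNNCCA, the cAMP response element TGACGTCA and its short form TGACG.
Pck1: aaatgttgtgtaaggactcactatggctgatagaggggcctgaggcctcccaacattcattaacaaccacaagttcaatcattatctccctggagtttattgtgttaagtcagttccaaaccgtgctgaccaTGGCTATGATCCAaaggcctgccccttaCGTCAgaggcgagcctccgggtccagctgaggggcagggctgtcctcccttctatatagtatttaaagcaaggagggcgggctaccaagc
Pck2: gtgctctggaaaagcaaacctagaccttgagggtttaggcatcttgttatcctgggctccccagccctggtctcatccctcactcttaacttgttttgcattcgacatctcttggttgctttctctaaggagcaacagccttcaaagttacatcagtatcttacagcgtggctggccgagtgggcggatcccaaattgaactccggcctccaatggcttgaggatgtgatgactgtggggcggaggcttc

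The Pck1 window held 1 relaxed NFI match, 118 to 106 bases before the start, and 1 short cAMP response element match on the minus strand, 90 to 86 bases before it. None of these motifs was in the Pck2 window. The relaxed NFI form was in 4.47% of the 32851 RefSeq windows of this length searched, and the short cAMP form in 17.8%. Windows on chromosome 18, where Me2 lies, were left out of the search. The full palindrome was in 0.0365% of the windows and the full cAMP response element in 1.55%. Neither was in any of the 7 windows of the other 6 enzyme genes. Pcx has 2 such windows; the relaxed form was in 1 of them, 20 to 8 bases before its start, overlapping the short arm. That arm was in 4 of the 7 windows, of Pcx (both), Fbp1 and Fbp2, against 41.5% of all windows. A match to these letters is not evidence that a factor binds there.

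The enzyme genes spanned a wide range of levels. Per kilobase of exon, the mean normalized count over the libraries was 1853 for Me2, the mitochondrial malic enzyme that makes pyruvate from malate. It was 1225 for Pck2, 1052 for G6pc3, the widely expressed glucose 6-phosphatase catalytic subunit, and 771 for Pcx, pyruvate carboxylase, by the authors' deposited table. Fbp1, the fructose bisphosphatase of liver and kidney, stood at 337 and Pck1 at 84.9 per kilobase in the authors' deposited table. Fbp2, the muscle fructose bisphosphatase, was lowest at 13.6 per kilobase in the authors' deposited table, 136-fold under Me2. Before division by length the means in the authors' deposited table were 222 for Pck1, 4166 for Pck2, 3292 for Pcx, 499 for Fbp1, 17.6 for Fbp2, 1622 for G6pc3 and 4548 for Me2. Mitochondrial PEPCK was thus the more abundant PEPCK transcript over these libraries as a whole, and spread between samples is not known for these means.

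On mm10 the features lay on 78 exon intervals in all, none of them merged with exons of another gene. Pck1 (chromosome 2, 173153073 to 173159253, plus strand) and Pck2 (chromosome 14, 55540266 to 55550017, plus strand) were each counted on 10 exon intervals. Pcx (chromosome 19, 4510472 to 4621752, plus strand) had 22 and G6pc3 (chromosome 11, 102189699 to 102194081, plus strand) had 6. Fbp1 (chromosome 13, 62864753 to 62888282) and Fbp2 (chromosome 13, 62836885 to 62858370) lie on the minus strand, 6382 bp apart, with 7 intervals each. Me2, on chromosome 18, had 16. The 2 PEPCK genes and the 2 fructose bisphosphatase genes are paralogs, and whether reads were shared between them was not tested.

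Nfib itself, the targeted gene, had a log2 fold change of -1.08 ± 0.035 in 16T with shNfib, -1.32 ± 0.035 in KP1 with shNfib and 1.80 ± 0.036 in KP22 with Nfib cDNA in the authors' deposited table. The headings of the table do not give a direction, so the direction of every comparison was read from Nfib. The 7 neuroendocrine markers reported (Insm1, Chga, Syp, Calca, Ncam1, Uchl1 and Dll3) were present, with means between 2285 and 25975 in the authors' deposited table. Of these 7, 2 rose and 4 fell in 16T with shNfib, 3 rose and 3 fell in KP1 with shNfib, and 2 rose and 4 fell in KP22 with Nfib cDNA. Of all genes tested 45.3% changed in 16T, 37.2% in KP1 and 38.4% in KP22. Of the marker lists of tissues that use Pck1, 3 of 8 hepatocyte genes, 3 of 6 kidney proximal tubule genes and 1 of 6 adipocyte genes reached a mean of 10 in the authors' deposited table. Alb, Fabp4 and Lep were listed at 0. Of fibroblast and leukocyte markers, 3 of 6 and 2 of 6 reached a mean of 10, with Col3a1 and Cd3e at 0. Part of this expression moved with the comparisons. Lrp2, the endocytic receptor megalin of proximal tubule, changed by 4.13 ± 0.43 in KP22 with Nfib cDNA (adjusted p = 2.68e-20), -1.49 ± 0.34 in 16T and -2.56 ± 0.27 in KP1, in the authors' deposited table. Tat, a liver aminotransferase, had 1.86 ± 0.48 in KP22, -1.03 ± 0.38 in 16T and -1.01 ± 0.38 in KP1 (adjusted p = 0.000576, 0.019 and 0.0246, authors' deposited table). Other markers on these lists did not move alike. In KP22 with Nfib cDNA Aqp1, a water channel of proximal tubule, had -1.22 ± 0.46 (adjusted p = 0.0254) and Cubn, the partner of megalin, -0.04 ± 0.50 (adjusted p = 0.967), in the authors' deposited table. For Ttr, the transthyretin gene, the authors' deposited table gave 0.95 ± 0.17 with shNfib in 16T (adjusted p = 3.33e-07), -0.91 ± 0.19 with shNfib in KP1 (adjusted p = 1.04e-05) and 0.62 ± 0.41 with cDNA (adjusted p = 0.256). Of the fibroblast list, Pdgfra, a growth factor receptor, rose in 16T (0.24 ± 0.077) and fell in KP1 (-0.47 ± 0.069), and Dcn, a matrix proteoglycan, rose in 16T (0.61 ± 0.21), per the authors' deposited table. Neither passed the test in KP22 with Nfib cDNA (-0.22 ± 0.25 for Pdgfra and 0.08 ± 0.44 for Dcn, authors' deposited table). The part of such cells in any result was not tested.

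Pck1 had a log2 fold change of -7.86 ± 0.44 in KP22 with Nfib cDNA, against the empty vector, in the authors' deposited table. This is 0.432% of the empty-vector level, or 231.6-fold lower, and is given as a description because the value chose the gene. Fewer cells with the transcript and less of it per cell cannot be told apart in such bulk RNA. Whether any KP22 library with Nfib cDNA was at 0 is not known, and the fold is that of the fitted value, not a bound. No SE of the table exceeds 0.521 however low the mean, so the authors' effects appear to have been shrunken, and each percent, fold and interval given here is of such values. The gene just behind it was Vstm2b at -7.32 ± 0.43 in the authors' deposited table. If the mean of 222 is taken over all 12 libraries, Pck1 cannot have averaged more than 1333 normalized counts in the 2 empty-vector libraries, which it would reach only with none in the other 10.

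Pck1 did not pass the test in either knockdown. Its log2 fold change in the authors' deposited table was 0.28 ± 0.51 in 16T (95% interval -0.71 to 1.28, adjusted p = 0.701) and -0.04 ± 0.50 in KP1 (95% interval -1.02 to 0.94, adjusted p = 0.969). Both intervals reach past the size of the changes seen in the other enzyme genes, so a change of that size in Pck1 was not detectable here. The SEs were large for a gene at this mean. In 16T the SE of 0.508 in the authors' deposited table stood beside a median of 0.217 over 531 genes whose mean was within 1.2-fold of Pck1, and 8 of them had a larger SE. In KP1 it was 0.501 against 0.215, with 11 larger, and in KP22 0.441 against 0.225, with 37 larger. The largest SE in 16T and in KP1 was 0.521 in the authors' deposited table, and the median over the 773 genes with a mean of 10 to 20 in 16T was 0.513. The SE of Pck1 in 16T thus resembled that of genes far below its own mean. Fbp1 was alike in this, with an SE of 0.358 in 16T against a median of 0.152 for its mean (19 of 695 genes larger) in the authors' deposited table. The other 5 enzyme genes lay near the main band, as the plot of SE against mean shows.

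**Figure D1:**
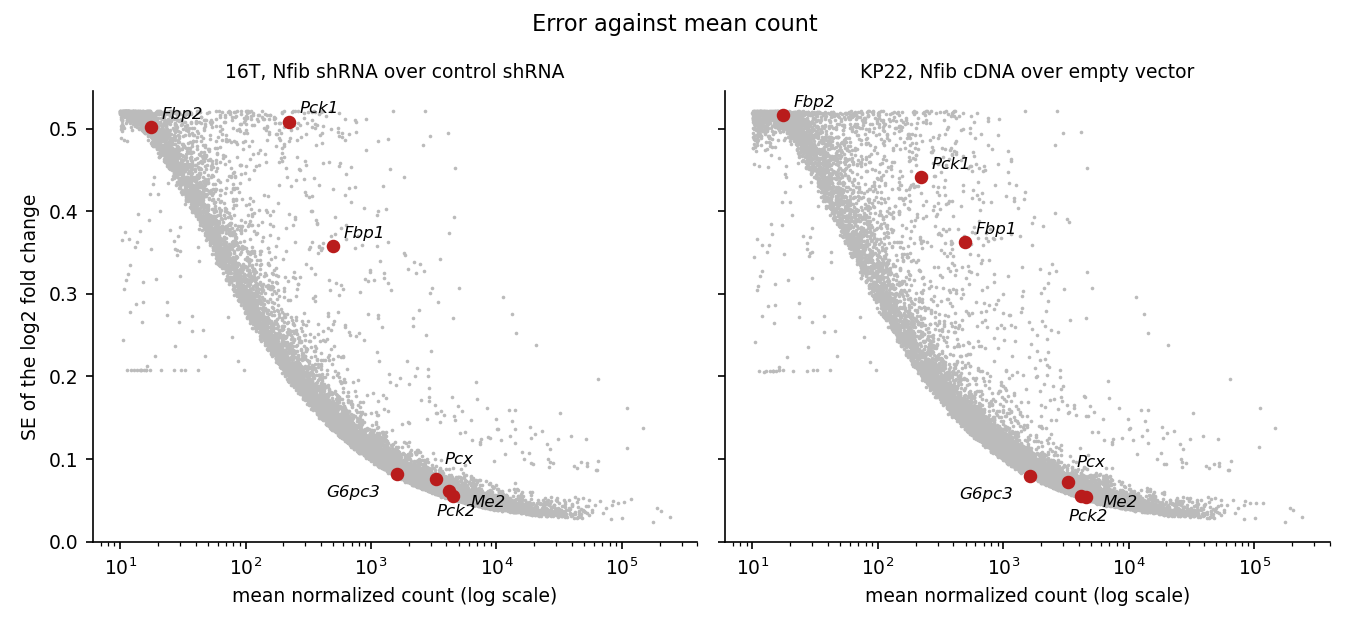
SE of the log2 fold change against the mean normalized count over the libraries (log scale) in 16T (left) and KP22 (right), with each grey point 1 of 15008 genes and the 7 enzyme genes in red. Pck1 (0.508 in 16T) and Fbp1 (0.358) stand above the band, and Pck2, Pcx, G6pc3, Me2 and Fbp2 lie on it.

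Pck2, which encodes the mitochondrial PEPCK, had smaller SEs than Pck1. It rose by 0.28 ± 0.057 in KP1 with shNfib, to 121% of the control shRNA level (adjusted p = 6.69e-06, authors' deposited table). In 16T it was at -0.02 ± 0.061 in the authors' deposited table (adjusted p = 0.79), with a 95% interval of -0.14 to 0.10. With Nfib cDNA, KP22 had -0.26 ± 0.056 for Pck2 (83.5% of the empty-vector level, authors' deposited table), which is small beside -7.86 for Pck1.

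Pcx, whose product pyruvate carboxylase supplies oxaloacetate both to PEPCK and to the citrate cycle, fell in 16T with shNfib. Its change there was -0.39 ± 0.076, or 76.5% of the control shRNA level (adjusted p = 2.38e-06, authors' deposited table). In KP1 the value was -0.05 ± 0.075 (adjusted p = 0.66) and in KP22 with Nfib cDNA 0.28 ± 0.072, both in the authors' deposited table. Me2 rose in 16T by 0.18 ± 0.055, to 113% of the control (adjusted p = 0.00308, authors' deposited table). Me2 stood at 0.00 ± 0.054 in KP1 (adjusted p = 0.982) and at -0.04 ± 0.054 in KP22 with Nfib cDNA in the authors' deposited table. The enzyme of Pcx uses pyruvate and that of Me2 forms it, and in 16T the gene for the first was lower and the gene for the second higher.

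G6pc3, the ubiquitous glucose 6-phosphatase, fell in KP1 with shNfib, with a change of -0.37 ± 0.081 or 77.3% of the control (adjusted p = 3.19e-05, authors' deposited table). It was at 0.09 ± 0.082 in 16T (adjusted p = 0.43) and 0.10 ± 0.079 in KP22 with Nfib cDNA in the authors' deposited table. Neither fructose bisphosphatase gene passed the test in a knockdown. Fbp1 had -0.11 ± 0.36 in 16T (adjusted p = 0.849) and 0.21 ± 0.43 in KP1 (adjusted p = 0.779), and 0.42 ± 0.36 in KP22 with Nfib cDNA, in the authors' deposited table. Fbp2 had -0.09 ± 0.50 in 16T (adjusted p = 0.913), -0.58 ± 0.51 in KP1 (adjusted p = 0.43) and 0.70 ± 0.52 in KP22 with Nfib cDNA, in the authors' deposited table. With SEs of this size a change of the extent seen in Pcx or G6pc3 could not have been detected in either gene.

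**Figure D2:**
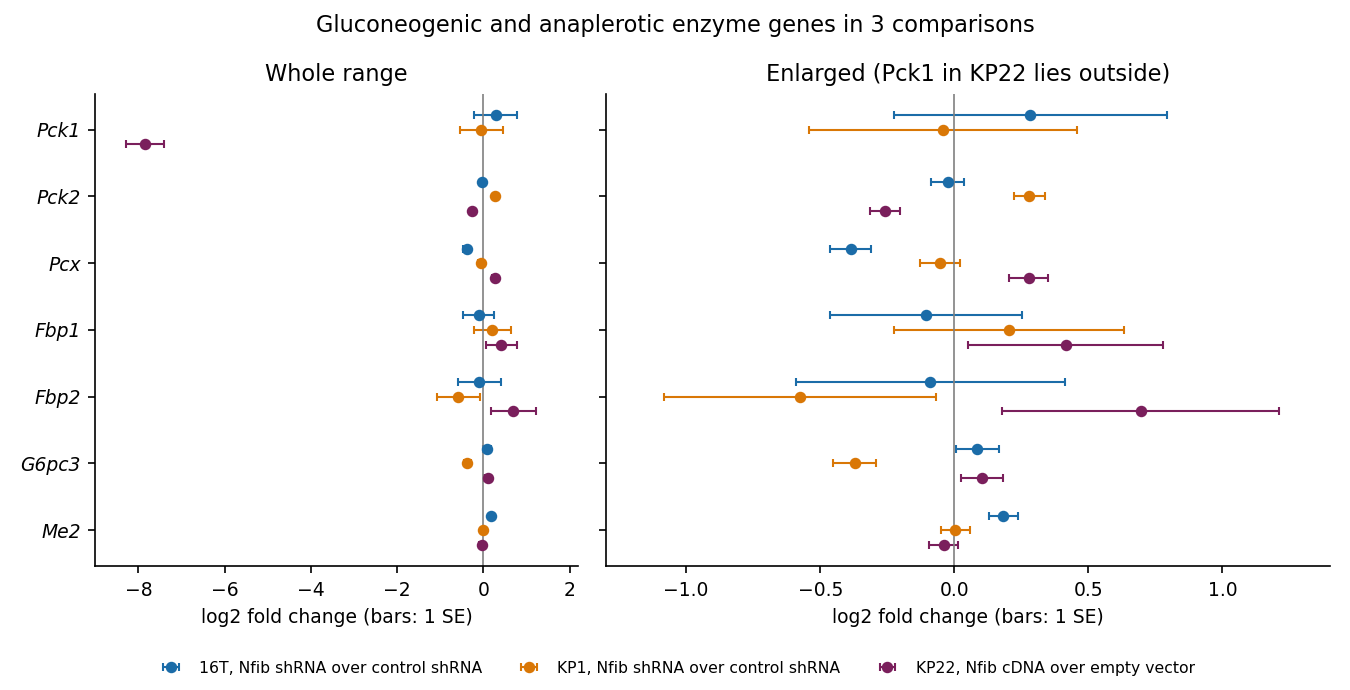
Log2 fold changes of the 7 enzyme genes in 16T and KP1 (shNfib over control shRNA) and in KP22 (Nfib cDNA over empty vector), with bars of 1 SE, over the whole range (left) and enlarged (right). Pck1 in KP22 lies at -7.86, and every other point lies between -0.58 and 0.70.

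In 16T 2 of the 7 enzyme genes changed (Pcx lower, Me2 higher), where 45.3% of 14504 tested genes did. In KP1 2 of 7 changed (G6pc3 lower, Pck2 higher), against 37.2% of the genes tested. In KP22 3 of 7 were past the same threshold (Pck1 and Pck2 lower, Pcx higher), where 38.4% of 17544 genes tested were. Pck1 was chosen by its change in KP22, so its place in this count was fixed beforehand. The count is therefore a description and cannot be held against that share. The median log2 fold change of the 7 was -0.02 in 16T (all genes tested -0.05), -0.04 in KP1 (all genes -0.02) and 0.10 in KP22 (all genes 0.04), from the authors' deposited table. No enzyme gene changed in both knockdown lines, and 3 (Pck1, Fbp1 and Fbp2) changed in neither. Of all 14504 genes tested, 23.1% changed in both lines and 40.5% in neither. None of the 4 changes was called by the authors' second test, against an absolute log2 change of 0.5.

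The 2 knockdown lines were then compared directly, by the difference of their log2 fold changes (16T minus KP1, so that a positive value is higher in 16T). The difference was past the threshold for 3 of 7 enzyme genes (1 higher and 2 lower in 16T, or 2 and 2 with effects recentred on the median gene), against 29.4% of 15008 genes. G6pc3 differed by 0.46 ± 0.115 (95% interval 0.23 to 0.68, adjusted p = 0.0005), Pcx by -0.33 ± 0.107 (adjusted p = 0.00838) and Pck2 by -0.30 ± 0.083 (adjusted p = 0.00162), computed from the authors' deposited table with a normal reference. When Student's distribution on 6 degrees of freedom replaced the normal one, none of these 3 differences had an adjusted p below 0.05. The values were then 0.0542 for G6pc3 (0.000176 to 0.0542 over the alternatives), 0.0976 for Pcx (0.00706 to 0.0976) and 0.0668 for Pck2 (0.00135 to 0.0668). Me2 had 0.18 ± 0.077 (adjusted p = 0.063) and Pck1 0.33 ± 0.71 with a 95% interval of -1.07 to 1.72 (adjusted p = 0.797), computed from the authors' deposited table. The intervals were as wide for Fbp1 (-1.41 to 0.78) and Fbp2 (-0.91 to 1.89).

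The genes whose values over the 3 comparisons were nearest to those of Pck1 were Emx1, Vstm2b, Gm7271, Frem1 and Ccbe1, at Euclidean distances between 1.30 and 2.69 on the log2 scale. They were found by likeness, so their values are a description. In KP22 with Nfib cDNA they had -6.73 ± 0.44 (Emx1, a homeobox gene), -7.32 ± 0.43 (Vstm2b, a membrane protein with an immunoglobulin domain) and -6.48 ± 0.45 (Gm7271, a predicted gene) in the authors' deposited table. Frem1, an extracellular matrix protein of basement membranes, had -5.42 ± 0.27 and Ccbe1, a secreted factor of lymphatic growth, -5.46 ± 0.43 in the authors' deposited table. None of Emx1, Vstm2b, Gm7271 and Frem1 passed the test in a knockdown. For Emx1, Vstm2b and Gm7271 the SEs there were 0.49 to 0.52, near the largest in 16T and KP1 (0.521), so modest changes were not detectable. Ccbe1 was higher in KP1 with shNfib, at 1.15 ± 0.45 (adjusted p = 0.0321, authors' deposited table). These 5 genes lie on chromosomes 6, 7, 5, 4 and 18, not on chromosome 2 with Pck1.

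**Figure D3:**
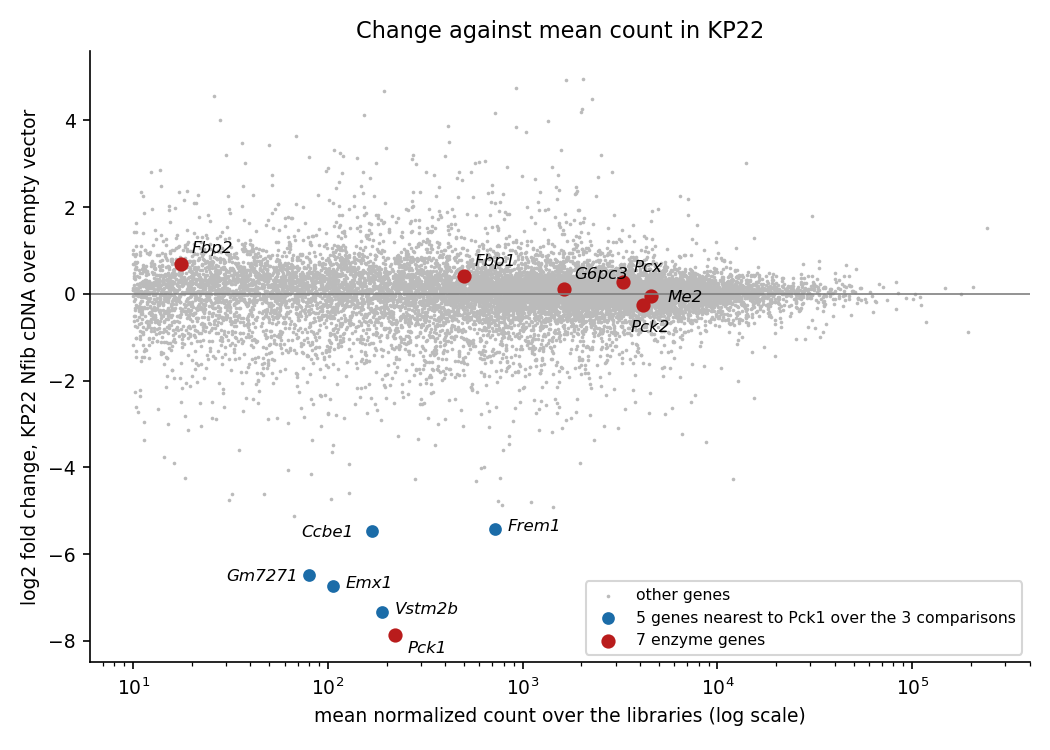
Log2 fold change in KP22 (Nfib cDNA over empty vector) against the mean normalized count over the libraries (log scale), with each grey point 1 gene. Pck1 lies lowest at -7.86, next to 3 of the 5 genes with the nearest pattern (blue), while the other 6 enzyme genes (red) lie within the main cloud.

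The measured genes beside Pck1 on chromosome 2 did not share its value. The 5 on one side (Bmp7, Spo11, Rae1, Rbm38 and Ctcfl) and the 5 on the other (Zbp1, Pmepa1, Ppp4r1l-ps, Rab22a and Vapb) had KP22 values between -0.55 and 0.89 in the authors' deposited table, with a median of 0.03. Among these 10, 2 rose (Rbm38 and Pmepa1) and 2 fell (Vapb and Ppp4r1l-ps), against 38.4% of all genes changed. Pmepa1, a regulator of TGF-beta signaling, had the highest value at 0.89 ± 0.11 (adjusted p = 1.72e-14), and Vapb, a membrane protein of the endoplasmic reticulum, the lowest at -0.55 ± 0.047 (adjusted p = 2.93e-30), in the authors' deposited table. In 16T with shNfib the median of the 10 was 0.08 (2 rose, 2 fell), and in KP1 -0.11 (1 rose, 3 fell), from the authors' deposited table, where 45.3% and 37.2% of all genes changed. The largest of these was Bmp7, a growth factor of the BMP family, at 1.76 ± 0.10 in KP1 with shNfib in the authors' deposited table (adjusted p = 4.4e-63).

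**Figure D4:**
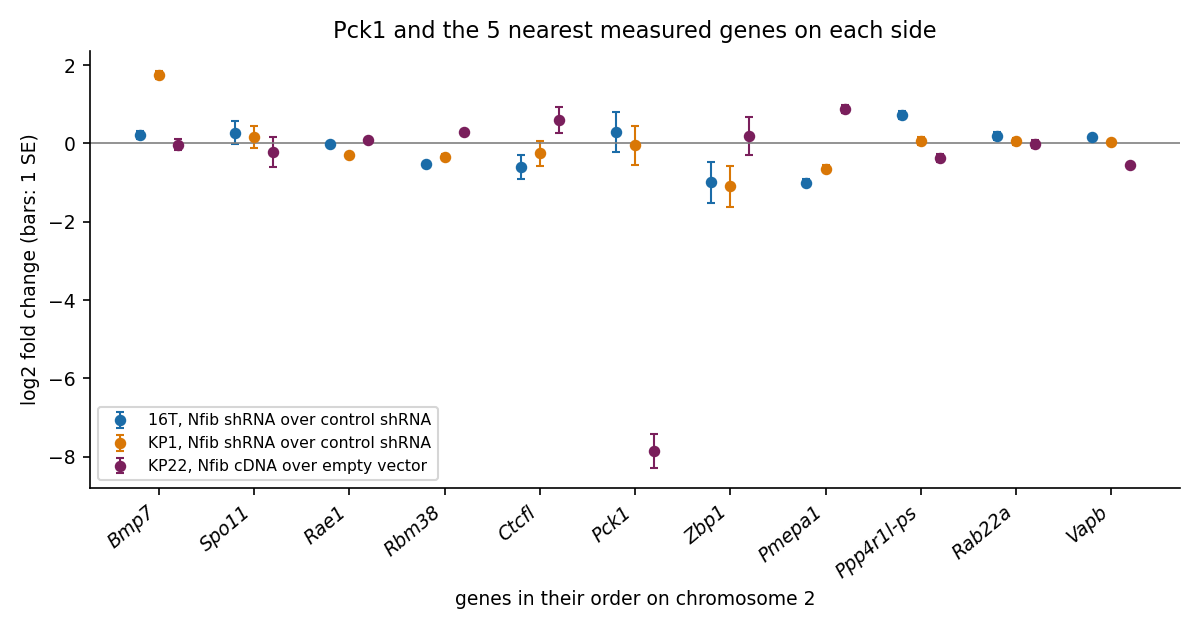
Log2 fold changes of Pck1 and the 5 nearest measured genes on each side, in their order on chromosome 2, in 16T, KP1 and KP22, with bars of 1 SE. Pck1 in KP22 lies at -7.86, and the KP22 values of its neighbours lie between -0.55 and 0.89.

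Genes that work next to the 7 enzymes were counted by lists. Where a count is also given recentred, the share of all genes recentred alike was 24.2% higher and 20.8% lower in 16T. It was 19.5% higher and 17.9% lower in KP1, and 16.2% higher and 21.7% lower in KP22. The other genes of the glucose 6-phosphatase system and the other malic enzymes were few. G6pc, the liver catalytic subunit, was listed at 0 and G6pc2, that of pancreatic islets, had a mean of 0.653 in the authors' deposited table. The 3 others all rose in 16T with shNfib, 2 of them with a t distribution, against 20% of all genes higher. They were Me3, a second mitochondrial malic enzyme (0.75 ± 0.17), Me1, the cytosolic one (0.55 ± 0.078), and Slc37a4, the glucose 6-phosphate transporter (0.29 ± 0.097), in the authors' deposited table. In KP1, Me3 (1.26 ± 0.19) and Me1 (0.48 ± 0.08) rose and Slc37a4 fell (-0.36 ± 0.095) in the authors' deposited table. In KP22 with Nfib cDNA, Me1 rose (0.39 ± 0.081, adjusted p = 9.41e-06) and Slc37a4 fell (-0.25 ± 0.096, adjusted p = 0.033) in the authors' deposited table, which with a t distribution left 1 of the 2 calls. Slc37a4 differed between the knockdown lines by 0.65 ± 0.135 (16T minus KP1, adjusted p = 1.72e-05, from the authors' deposited table), in the same direction as G6pc3.

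The reversible steps shared by glycolysis and gluconeogenesis, from glucose 6-phosphate isomerase to enolase, rose in 16T with shNfib. There 10 of 11 tested genes rose and 0 fell, with a median log2 fold change of 1.14, against 20% of all genes higher and 25.3% lower (24.2% and 20.8% with effects recentred on the median gene). Aldoa, the main aldolase, rose by 2.34 ± 0.037, Pgk1, phosphoglycerate kinase, by 1.63 ± 0.033, Gpi1, the isomerase, by 1.55 ± 0.034 and Eno1, enolase, by 1.41 ± 0.043, in the authors' deposited table. In KP1 1 gene rose and 2 fell (2 and 2 recentred), against 17.6% and 19.6% of all genes. Eno2, the neuronal enolase, rose there by 0.81 ± 0.076, and Eno1 and Gpi1 fell slightly (-0.25 ± 0.043 and -0.18 ± 0.033), in the authors' deposited table. With Nfib cDNA in KP22 0 of 12 rose and 9 fell, against 18.8% of all genes lower, with a median of -0.41. Eno2 had -1.80 ± 0.093, Aldoa -1.003 ± 0.038, Pgam1, phosphoglycerate mutase, -0.52 ± 0.038 and Aldoc, a brain aldolase, -0.44 ± 0.08 there, in the authors' deposited table. The difference 16T minus KP1 was past the threshold for 8 of 11 of these genes, all higher in 16T, where 14% of all genes were.

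Genes listed for the one-way glycolytic steps, which gluconeogenesis bypasses with its own enzymes, showed 8 rises and 2 falls among 12 tested in 16T. Of all genes 20% were higher there and 25.3% lower. The 14 listed genes include Pfkfb1, Pfkfb2, Pfkfb3, Pfkfb4 and Tigar, which encode regulators and not enzymes of these steps. In 16T Pfkfb3 (0.80 ± 0.062) and Pfkfb4 (0.27 ± 0.11) were among the rises, in the authors' deposited table. Tigar (-0.60 ± 0.12, authors' deposited table) was among the falls there. Pkm, pyruvate kinase, rose by 1.75 ± 0.028, Pfkp and Pfkl, phosphofructokinase subunits, by 1.71 ± 0.052 and 1.36 ± 0.047, and Hk2, hexokinase, by 1.24 ± 0.105, in the authors' deposited table. In KP1 1 rose and 6 fell, against 17.6% and 19.6% of all genes, with Hk2 at -0.79 ± 0.095, Pfkfb3, which makes the activator of phosphofructokinase, at -0.75 ± 0.063, Pfkp at -0.43 ± 0.051 and Pfkm, the muscle subunit, at 0.47 ± 0.079, in the authors' deposited table. With Nfib cDNA in KP22 1 of 14 rose and 7 fell, against 19.5% and 18.8% of all genes. The rise was Pfkfb3 (0.68 ± 0.067), and the falls included Pfkm (-1.63 ± 0.083), Pfkfb4 (-0.76 ± 0.12) and Pfkl (-0.57 ± 0.046), per the authors' deposited table. Genes of the list for the reversible steps and of the list for the one-way steps thus rose more often than they fell in 16T. Of the bypass steps of gluconeogenesis, Pcx fell there and Pck1, Pck2, Fbp1, Fbp2 and G6pc3 did not pass the test, which for Pck1, Fbp1 and Fbp2 had SEs of 0.36 to 0.51.

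**Figure D5:**
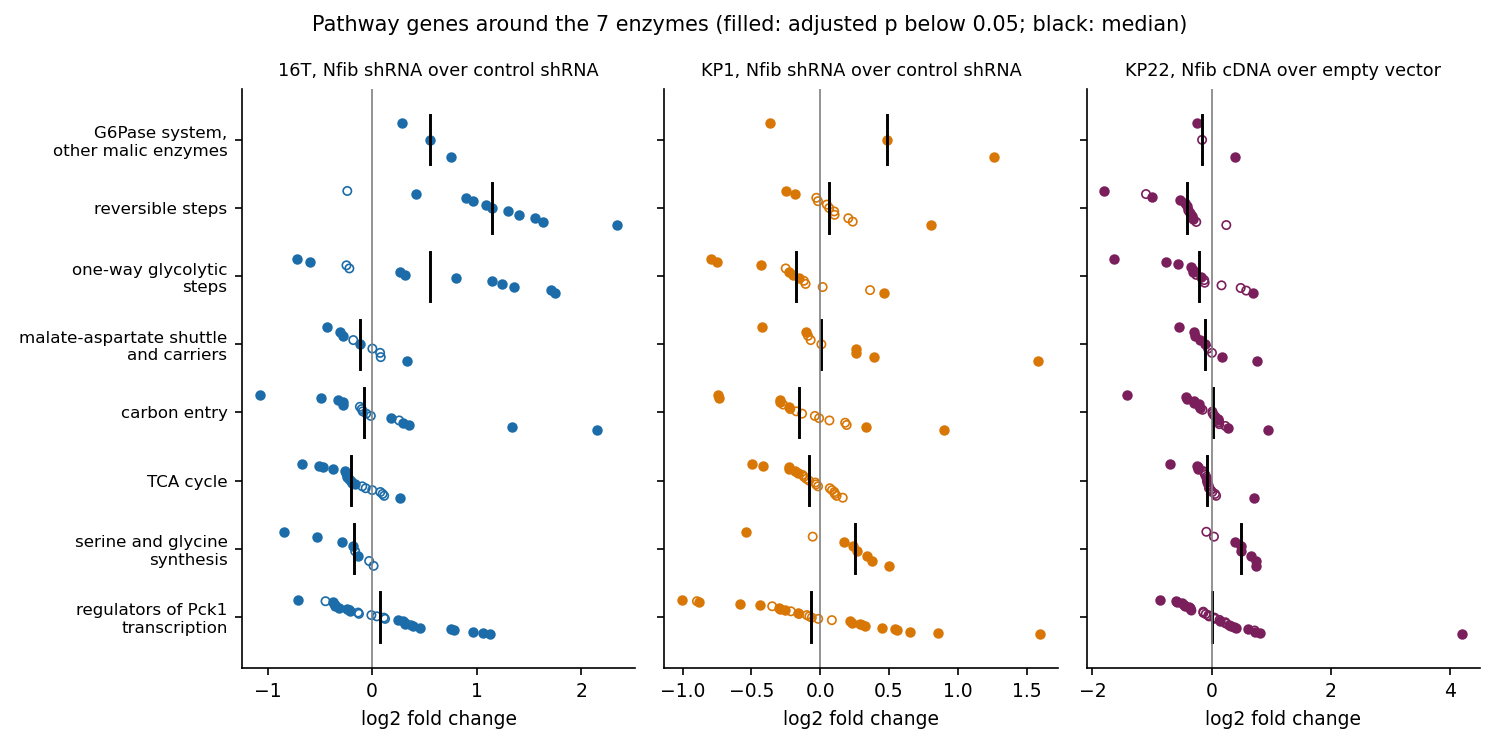
Log2 fold changes of the tested genes of 8 lists around the 7 enzymes in 16T and KP1 (shNfib over control shRNA) and KP22 (Nfib cDNA over empty vector), filled where the adjusted p was below 0.05 and with the median as a black bar. The reversible steps have a median of 1.14 in 16T and -0.41 in KP22, and the other medians lie nearer to 0 or on fewer genes.

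The carbon of oxaloacetate made by pyruvate carboxylase can leave mitochondria as malate or aspartate, through the malate-aspartate shuttle and other carriers. Of 9 such genes 1 rose and 4 fell in 16T (3 and 3 recentred), 4 rose and 2 fell in KP1, and 2 rose and 5 fell in KP22 with Nfib cDNA. Of all genes 45.3%, 37.2% and 38.4% changed in these comparisons. Slc25a13, the aspartate-glutamate carrier of liver (citrin), rose by 1.58 ± 0.11 in KP1 and by 0.33 ± 0.13 in 16T, in the authors' deposited table. Its difference, 16T minus KP1, was -1.25 ± 0.17 (adjusted p = 4.35e-12, from the authors' deposited table). Mdh2, mitochondrial malate dehydrogenase, fell in 16T (-0.30 ± 0.036) and Slc25a1, the citrate carrier, fell in 16T (-0.28 ± 0.069) and in KP1 (-0.42 ± 0.068) and rose in KP22 with Nfib cDNA (0.76 ± 0.068), in the authors' deposited table. With a t distribution 3 of the 5 calls in 16T were left.

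Of the genes that bring in carbon from lactate, alanine, glycerol and glutamine, 5 rose and 5 fell of 16 tested in 16T (5 and 2 recentred), 2 rose and 5 fell of 16 in KP1, and 3 rose and 7 fell of 20 in KP22 with Nfib cDNA (2 and 9 recentred), against 45.3%, 37.2% and 38.4% of all genes changed. Pdk1, the kinase that shuts pyruvate dehydrogenase, rose in 16T by 2.15 ± 0.067 and Ldha, the muscle-type lactate dehydrogenase subunit, by 1.34 ± 0.034, in the authors' deposited table. Ldhb, the heart-type subunit, fell in 16T (-0.49 ± 0.20), in KP1 (-0.74 ± 0.18) and in KP22 with Nfib cDNA (-1.42 ± 0.21) in the authors' deposited table. Gpd1, which links glycerol to the pathway, fell in 16T (-1.07 ± 0.12) and KP1 (-0.74 ± 0.12) with shNfib and rose in KP22 with Nfib cDNA (0.94 ± 0.11), in the authors' deposited table. With a t distribution 6 of the 10 calls in 16T were left.

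Genes listed for the citric acid cycle, which Pcx refills, were lower more often than higher in 16T. There 1 rose and 11 fell of 19 (3 and 9 recentred), against 25.3% of all genes lower. The median was -0.20. The 19 genes include Pcca, Pccb, Mut and Mcee, which encode enzymes of propionate breakdown and not of the cycle itself. The rise in 16T was Mut (0.27 ± 0.066), and Pccb was among the falls (-0.20 ± 0.071, authors' deposited table). Idh3a, a subunit of isocitrate dehydrogenase, fell (-0.67 ± 0.052), and Suclg1 and Sdhc, of succinyl-CoA ligase and succinate dehydrogenase, had -0.51 ± 0.079 and -0.47 ± 0.075, in the authors' deposited table. In KP1 0 rose and 6 fell (2 and 6 recentred), against 19.6% of all genes lower, with Suclg2 at -0.49 ± 0.098 in the authors' deposited table. With Nfib cDNA in KP22 1 rose (Suclg2, 0.71 ± 0.095, authors' deposited table) and 4 fell, a total of 5 of 19, against 38.4% of all genes changed. That total became 11 when recentred, with 1 higher and 10 lower, against 16.2% and 21.7% of all genes recentred alike. It became 3 with a t distribution. Mcee (-0.70 ± 0.20) and Pccb (-0.25 ± 0.072) were among the 4 that fell as deposited.

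Genes listed for serine and glycine synthesis, which draws on 3-phosphoglycerate and can be fed through PEPCK-M, differed between the knockdown lines. The 8 genes include Mthfd2, Mthfd1l and Aldh1l2, which encode mitochondrial folate enzymes and not enzymes of this route. All of these rose in KP1 (0.34 ± 0.04, 0.27 ± 0.061 and 0.24 ± 0.054, authors' deposited table). Mthfd2 fell in 16T (-0.13 ± 0.04), and Mthfd2 and Aldh1l2 rose in KP22 with Nfib cDNA (0.49 ± 0.04 and 0.65 ± 0.054, authors' deposited table). In 16T with shNfib 0 of 8 genes rose and 5 fell, against 25.3% of all genes lower, and in KP1 6 rose and 1 fell, against 17.6% of all genes higher. Phgdh, the first enzyme of the route, fell in 16T (-0.53 ± 0.06) and Psat1, the second, had -0.29 ± 0.039 in 16T and 0.38 ± 0.038 in KP1, in the authors' deposited table. Shmt1, cytosolic serine hydroxymethyltransferase, fell in both lines (-0.85 ± 0.071 in 16T and -0.54 ± 0.067 in KP1, authors' deposited table). For 7 of 8 genes the difference 16T minus KP1 was past the threshold and lower in 16T, where 15.5% of all genes were, with Phgdh at -0.70 ± 0.084 and Psat1 at -0.66 ± 0.055, from the authors' deposited table. Pck2 lay lower in 16T as well (-0.30). In KP22 with Nfib cDNA 6 rose and 0 fell, against 19.5% of all genes higher, with Shmt1 at 0.74 ± 0.066 and Phgdh at 0.74 ± 0.057 in the authors' deposited table, while Pck2 stood at -0.26.

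Of 32 genes described in liver, kidney or fat as acting on Pck1 transcription, 31 had a feature and 28 a mean of at least 10. Hnf4a, the liver nuclear receptor at the head of this program, had a mean of 1.18, and Ppargc1a, its fasting-induced coactivator, 151, in the authors' deposited table. In 16T 11 rose and 7 fell of 28, and in KP1 10 rose and 8 fell of 28. In KP22 with Nfib cDNA 9 rose and 8 fell of 30 (8 and 10 recentred). Of all genes 45.3%, 37.2% and 38.4% changed in these comparisons. The 30 tested in KP22 include Hnf4a and Ppara, whose means were below 10. Hnf4a was among the 8 falls (-0.59 ± 0.25, adjusted p = 0.0479, authors' deposited table), at a mean near 0. In KP22 Nr2f1, an orphan nuclear receptor (COUP-TFI), rose by 4.19 ± 0.17 (adjusted p = 4.35e-139) in the authors' deposited table, far beyond the other regulators. With shNfib Nr2f1 fell in KP1 (-0.88 ± 0.087) and in 16T (-0.35 ± 0.087), in the authors' deposited table.

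Klf15, a fasting-induced zinc finger factor, rose in KP22 with Nfib cDNA by 0.81 ± 0.22, Thrb, a thyroid hormone receptor, by 0.73 ± 0.27 and Nr4a1, an orphan receptor induced by cAMP, by 0.61 ± 0.17, in the authors' deposited table. Thra, the other thyroid hormone receptor (-0.87 ± 0.072), and Nr0b2, a repressor of nuclear receptors (-0.60 ± 0.16), fell there in the authors' deposited table. Crtc3, a CREB coactivator (-0.50 ± 0.084), Foxo1, the insulin-controlled activator (-0.46 ± 0.12), and Nr3c1, the glucocorticoid receptor (-0.44 ± 0.065), fell there as well. In the knockdowns Foxo1 rose in 16T (1.13 ± 0.12) and in KP1 (0.86 ± 0.12), and Nr3c1 rose in 16T (1.06 ± 0.064) and in KP1 (0.54 ± 0.064), in the authors' deposited table. Rara, a retinoic acid receptor, rose in both as well (0.97 ± 0.12 in 16T and 0.65 ± 0.12 in KP1, authors' deposited table). Thra rose (0.75 ± 0.066 in 16T and 0.33 ± 0.065 in KP1) and Nr4a1 fell (-0.71 ± 0.18 and -0.58 ± 0.18) in both, opposite to KP22. Klf15 and Crtc3 were not opposite. Klf15 rose in 16T (0.78 ± 0.19) and did not pass the test in KP1 (0.09 ± 0.20). Crtc3 fell in 16T (-0.37 ± 0.079) and in KP1 (-0.25 ± 0.078), as in KP22. Thrb passed the test in neither knockdown. Nr0b2 (1.60 ± 0.28) and Sik1, a kinase that holds CREB coactivators out of the nucleus (-1.003 ± 0.069), changed in KP1 in the authors' deposited table. The difference 16T minus KP1 was -1.55 ± 0.32 for Nr0b2 and 1.31 ± 0.098 for Sik1, from the authors' deposited table (adjusted p = 1.17e-05 and 6.48e-39). Pck1 passed the test in neither knockdown beside these values.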

How the data were processed

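RNA of 12 samples was sequenced; per the labels' protocols, RNA came from a Qiagen kit and libraries from an Illumina TruSeq kit. TopHat, bedtools, DESeq and DESeq2 and the build mm10 are named per the submitters' processing notes. For each of them the version is not given in the sources used here. A table of comparisons was deposited. Each feature has, per the file headers, 1 mean of normalized counts (a deposited signal), log2 fold changes with SEs, the Wald score, its p-value (raw and adjusted), and these again for a test against an absolute log2 change of 0.5. The deposited score equalled the log2 fold change over its SE. The table's name mentions cqn normalization; its settings and the depths are not given, so precision is that of the authors' SEs, which never exceeded 0.521; the effects look shrunken. A deposited list of 211975 exon intervals gave positions and lengths. The direction of each comparison was read from Nfib. Features with joined names were left out; no enzyme gene had one.

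For 16T and KP1, and for genes other than the enzymes in KP22, calls are adjusted p-values of the authors below 0.05. Enzyme genes past that threshold in KP22 are counted only as a description. The difference 16T minus KP1 took the deposited effects and SEs and added errors as those of comparisons with no shared sample. It used the normal distribution and was adjusted by Benjamini-Hochberg over 15008 genes. The calculation was tested on data simulated from the normal distribution at the deposited SEs, which cannot check that distribution or those SEs. Alternatives were other filters on the mean, a change of at least 1 or the test against 0.5, recentring, and a t distribution. Names and promoters came from RefSeq (GRCm38.p6). Python 3.11.15, pandas 2.3.3, numpy 2.4.6, scipy 1.17.1 and matplotlib 3.10.9 were used.

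The enzyme genes and all lists were chosen with earlier results of these data known. Named are all 7 enzyme genes; of each list, up to 4 genes per comparison with the largest absolute change among those past the threshold with a mean of at least 10 (up to 8 regulators); the 5 genes nearest in pattern; and the 5 measured genes on each side of Pck1. G6pc, G6pc2, Hnf4a, Ppargc1a, the markers at 0 (Alb, Fabp4, Lep, Col3a1 and Cd3e) and Cubn in KP22 were named after their values were seen. A further neuroendocrine marker of the list is not reported here.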

Additional observations from a re-analysis of the deposited data

Results flagged for a closer look

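For 3 enzyme genes the effects of the Nfib shRNA differed between the 2 knockdown lines by the test of the difference itself. G6pc3 differed by 0.46 on the log2 scale (16T minus KP1), with 0.09 in 16T and -0.37 in KP1. Pcx differed by -0.33, with -0.39 in 16T and -0.05 in KP1, and Pck2 by -0.30, with -0.02 in 16T and 0.28 in KP1. None of the 3 kept an adjusted p below 0.05 with a t distribution (0.0542, 0.0976 and 0.0668). All were computed from the authors' deposited table, and groups of 2 samples do not allow a search for samples that stand apart.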

How the results depend on the processing

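No paired analysis was possible because the deposited columns carry comparisons and no sample or replicate number, and leaving out each replicate was not run for the same reason. Joined features gave no further value, as no enzyme gene has one. The t distribution for KP22 and the alternatives for lists were chosen after seeing the data. Of the 191 alternatives, only those that recentre alter a log2 fold change, so the others could not change a direction. When recentred, no called value of an enzyme gene changed direction. Pck2 in 16T, not called, was 0.03 when recentred and -0.02 as deposited. Counts of enzyme genes changed were 2 in 16T and 2 in KP1, and both became 0 when a change of at least 1 was asked for or with the authors' test against 0.5. The count of differences between 16T and KP1 was 3, and 0 with the t distribution. With that distribution the count of changed genes also became 3 for malate-aspartate carriers in 16T and 6 for carbon entry in 16T. In KP22 it became 1 for the glucose 6-phosphatase and malic enzyme list and 3 for the citric acid cycle list, which recentred gave 11. Recentring brought the difference of Me2 past the threshold (0.21, adjusted p = 0.0247; 0.0247 to 0.187 over its alternatives). The other counts of lists and enzyme genes stayed within 1.5 times in 58 alternatives. Levels per sample and depth are unknown, and the SEs of Pck1, Fbp1 and Fbp2 are large.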
